A study of Sus scrofa with 2 samples.

Results

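SFRP1, SFRP2, SFRP4, SFRP5, DKK2 and WNT5A were followed across the cells of pig back muscle (longissimus dorsi). They were taken by gene symbol from the feature list that both count matrices share, 6 of 21301 features, and each symbol was found once. They were chosen by their measured levels in these same libraries, which differed between stromal cells, so the levels given here are a description and carry no test. The single-cell RNA sequencing libraries came from piglets of GDSS, the Guangdong small-eared spotted pig, and of the Yorkshire breed, 1 library per breed. Per the labels, both hold intramuscular vascular stem cells from 1 g of muscle per piglet, freed of red blood cells by lysis and of dead cells by magnetic beads, and made into libraries with the 10x Genomics v2 kit. The series sets the breeds against each other because they differ in intramuscular fat. How many piglets gave each library, of which sex, and what "P0" stands for is not given in the sources used here. A difference between the libraries therefore cannot be told apart from one between animals or preparations.

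Wnt ligands are secreted proteins that bind Frizzled receptors, together with the co-receptors LRP5 and LRP6 when they act through beta-catenin. In mouse and human, secreted frizzled-related proteins (SFRP) carry a domain like the ligand-binding part of Frizzled and can hold Wnt ligands away from their receptors, while the Dickkopf protein DKK2 binds LRP5 and LRP6. WNT5A is a ligand that mostly signals without beta-catenin, through receptors such as ROR1 and ROR2. Wnt signalling through beta-catenin is known to hold back the formation of adipocytes, and inhibitors of it are made by fibroblasts of many tissues.

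The filters left 10582 GDSS cells (median 2874 unique molecular identifiers, UMIs, each counting a captured RNA molecule) and 12667 Yorkshire cells (median 3003 UMIs). Cells were put into classes by counting markers, and stromal cells were then gated by at least 2 UMIs of the genes after which their states are named. PI16 marks a stromal state known from many tissues. CLDN1 encodes a tight junction protein of the sheath around nerves. THBS4 and KERA are matrix genes of tendon and other dense connective tissue, and HHIP encodes a binding protein for hedgehog ligands. The stromal class held 7537 GDSS and 1963 Yorkshire cells. Of these, 506 GDSS and 102 Yorkshire cells passed the PI16 gate alone, 222 and 93 the CLDN1 gate alone, 39 and 49 both of these, 513 and 301 the THBS4 and KERA gate, and 89 and 28 the HHIP gate. Another 6103 GDSS and 1358 Yorkshire stromal cells passed no gate. A level is given as CPM, the UMIs of a gene per 1000000 UMIs of the summed cells, with the exact 95% Poisson interval in brackets, and all intervals cover counting error only.

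The 8 stromal markers, by which the stromal class was called, summed to 46696 CPM in GDSS cells and 52349 CPM in Yorkshire stromal cells, against 389 and 184 CPM in the macrophage-like cells of the same libraries. The label on both samples is narrower than their contents, since satellite-like, endothelial-like, mural-like and glia-like cells were present as well. The nerve sheath markers, CLDN1 among them, summed to 779 CPM in CLDN1-gated GDSS cells and 2546 CPM in CLDN1-gated Yorkshire cells, of which CLDN1 itself made up 694 and 973 CPM. ITGB4 was at 19.9 CPM in these GDSS cells and 231 CPM in these Yorkshire cells. KRT8 had no UMI in any GDSS cell used, and whether this reflects the cells or the counting was not tested. There were 47 barcodes that occurred in both libraries, 37 of them among the cells used. Macrophage-like cells, which should lack these genes, showed how much free RNA adds. No member was above 1.21 CPM in GDSS macrophage-like cells or above 1.71 CPM, a single UMI, in Yorkshire ones, although these cells were deeper (median 6371 and 7656 UMIs) than stromal cells (3027 and 3661).

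The 6 genes fell into different cells. SFRP5 lay in glia-like cells, SFRP1 was highest in stromal cells with both PI16 and CLDN1, SFRP4 in these or in those with CLDN1 alone, SFRP2 was highest in TNMD-bearing tendon-type cells, DKK2 in PI16-gated cells and WNT5A in HHIP-gated cells. The same group came out highest in both libraries for 5 of the genes, and for SFRP4 CLDN1-gated Yorkshire cells stood slightly above those with both markers. Not all of these were apart beyond counting error. The interval of the highest group overlapped that of another for SFRP4 and SFRP2 in Yorkshire and for WNT5A in both libraries.

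**Figure D1:**
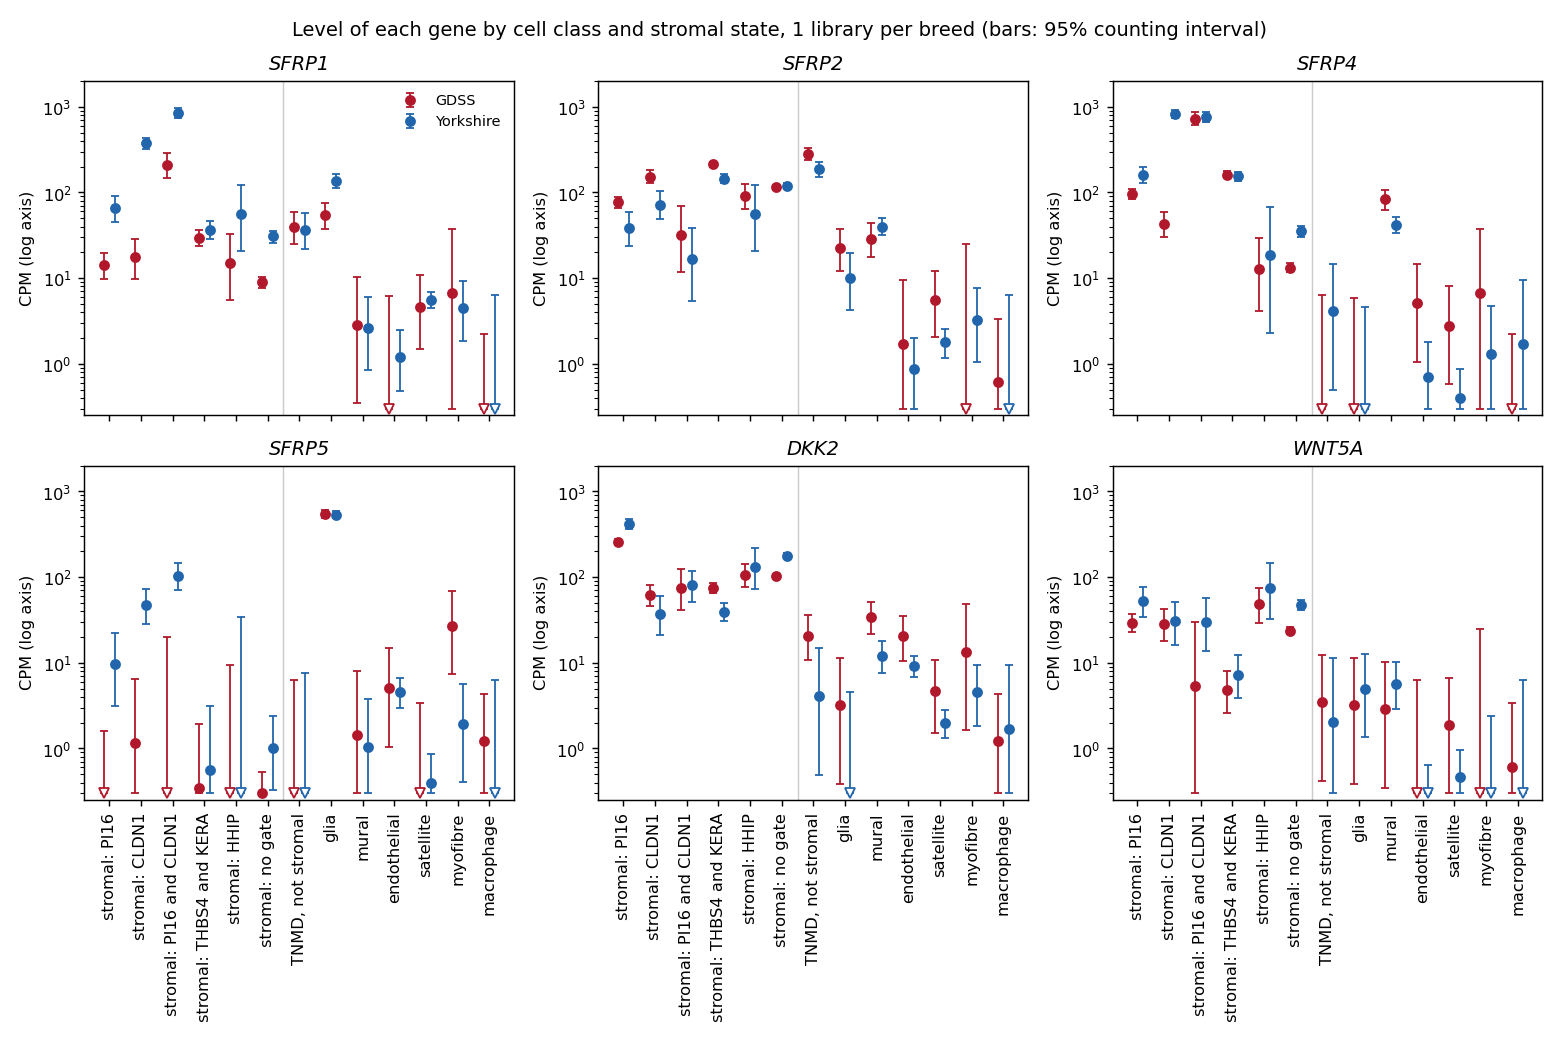
Level of each gene in CPM on a log axis, by stromal state (left of the grey line) and by other cell class, with GDSS in red left of Yorkshire in blue. Points are sums over the cells of 1 library, bars are 95% Poisson intervals, and open triangles at the bottom mark a count of 0; SFRP5 stands alone in glia at 551 CPM in GDSS cells and 537 CPM in Yorkshire cells.

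SFRP5 was a glial transcript in this muscle. Glia-like cells, called by Schwann cell markers such as SOX10, held 551 CPM (494 to 612) in GDSS and 537 CPM (488 to 591) in Yorkshire, and their intervals overlapped. These 286 GDSS and 283 Yorkshire cells carried 60.1% of all SFRP5 UMIs in each library. An SFRP5 UMI was present in 56.3% of GDSS and 60.8% of Yorkshire glia-like cells, and in 46.4% and 49.4% once every cell was thinned to 1500 UMIs, against 0 thinned macrophage-like cells in either library.

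Unclassified cells, of which many were shallow (median 1734 and 2493 UMIs), held another 24.3% of the GDSS and 7.93% of the Yorkshire SFRP5 UMIs.

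Outside glia, SFRP5 was near 0 in GDSS stroma and present in part of the Yorkshire stroma. GDSS stromal cells had 6 UMIs among 7537 cells, while Yorkshire stromal cells had 71 UMIs among 1963 cells. Of those 71, 31 were in cells with PI16 and CLDN1 (103 CPM, 70.1 to 147) and 20 in cells with CLDN1 alone (46.7 CPM, 28.5 to 72.1). GDSS cells had 0 UMIs in the state with both markers, a count that allows up to 16.1 CPM (3 UMIs), and 1 UMI in CLDN1-gated cells. Lymphatic endothelial-like cells of the Yorkshire library, 47 in number, had 19 SFRP5 UMIs (58.0 CPM, 34.9 to 90.6). The 11 such GDSS cells had 1 UMI.

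SFRP1 was highest in stromal cells that carried both PI16 and CLDN1. In cells with PI16 and CLDN1 it stood at 209 CPM (149 to 286) in GDSS and 849 CPM (748 to 960.1) in Yorkshire, with an SFRP1 UMI in 35.9% and 87.8% of the cells. The GDSS sum was 39 UMIs in 14 of 39 cells, 59.0% of them in 3 cells, a spread the interval leaves out. CLDN1-gated cells without PI16 had 17.6 CPM (9.85 to 29.0) in GDSS and 373 CPM (318 to 436) in Yorkshire. PI16-gated cells had 14.1 CPM in GDSS cells and 65.6 CPM in Yorkshire cells, and ungated stromal cells 9.0 and 30.6 CPM. The THBS4 and KERA state held a level of its own, 29.8 CPM (23.8 to 36.7) in GDSS and 36.8 CPM (28.4 to 46.8) in Yorkshire, which was the only stromal state where the SFRP1 intervals of the libraries overlapped apart from the small HHIP state.

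Glia-like cells also carried SFRP1, at 54.0 CPM (37.4 to 75.4) in GDSS and 136 CPM (111 to 164) in Yorkshire. Cells with TNMD, the gene of the tendon protein tenomodulin, that missed the stromal gate had 39.6 CPM in GDSS cells and 36.9 CPM in Yorkshire cells. Satellite-like, mural-like and endothelial-like cells were at 5.59 CPM or less. Macrophage-like cells had 0 UMIs in both libraries.

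A large part of Yorkshire SFRP1 lay in cells that the class rule set aside. Cells that met the gates of more than 1 class held 414 of its 1402 UMIs (29.5%, exact Clopper-Pearson interval 27.2 to 32.0), and in GDSS 42 of 494 (8.50%). In Yorkshire 37 of these cells had at least 2 CLDN1 UMIs, and all 37 also met the stromal gate. They held 317 SFRP1 UMIs (948 CPM, 847 to 1058). The keratin gene KRT8 stood at 1385 CPM in them. Doublets, which such cells can be, were not told apart from single cells that carry markers of another class.

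ITGB4, which encodes an integrin of the nerve sheath, was used to divide the CLDN1-gated cells further. This split, like all splits by a second gene here, was chosen after values were seen. Over both CLDN1-gated states, 24 GDSS and 62 Yorkshire cells had an ITGB4 UMI. SFRP1 stood at 98.5 CPM (49.2 to 176) in these GDSS cells and 858 CPM (766 to 959) in these Yorkshire cells. Without ITGB4 it was 46.4 CPM (33.6 to 62.5) in 237 GDSS cells and 275 CPM (223 to 334) in 80 Yorkshire cells. The GDSS intervals with and without ITGB4 overlapped, and the Yorkshire ones did not. SFRP5 was present with ITGB4 in Yorkshire, at 136 CPM (101 to 179), and stood at 2.77 CPM, a single UMI, without it.

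The SFRP4 sums ran the other way in GDSS, but from few cells. There SFRP4 had 2 UMIs with ITGB4 (17.9 CPM, 2.17 to 64.7) and 171 UMIs without (184 CPM, 158 to 214). These UMIs lay in 7 of 39 GDSS cells with PI16 and CLDN1 and in 8 of 222 with CLDN1 alone. The 3 highest cells of each state held 91.9% and 75.7% of its SFRP4 UMIs. The GDSS sums therefore cannot tell a split by ITGB4 from the spread between cells. In Yorkshire SFRP4 was high on both sides, at 997 CPM (898 to 1104) with ITGB4 and 588 CPM (511 to 673) without. KRT8 was at 0 UMIs in GDSS, as in all its cells, and at 986 CPM in Yorkshire among the ITGB4-bearing cells. SFRP2 sums were lower with ITGB4 in both libraries. They were 17.9 CPM (2 UMIs, 2.17 to 64.7) in GDSS cells and 10.9 CPM in Yorkshire cells where ITGB4 was present. Where it was absent they were 144 and 88.7 CPM.

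**Figure D2:**
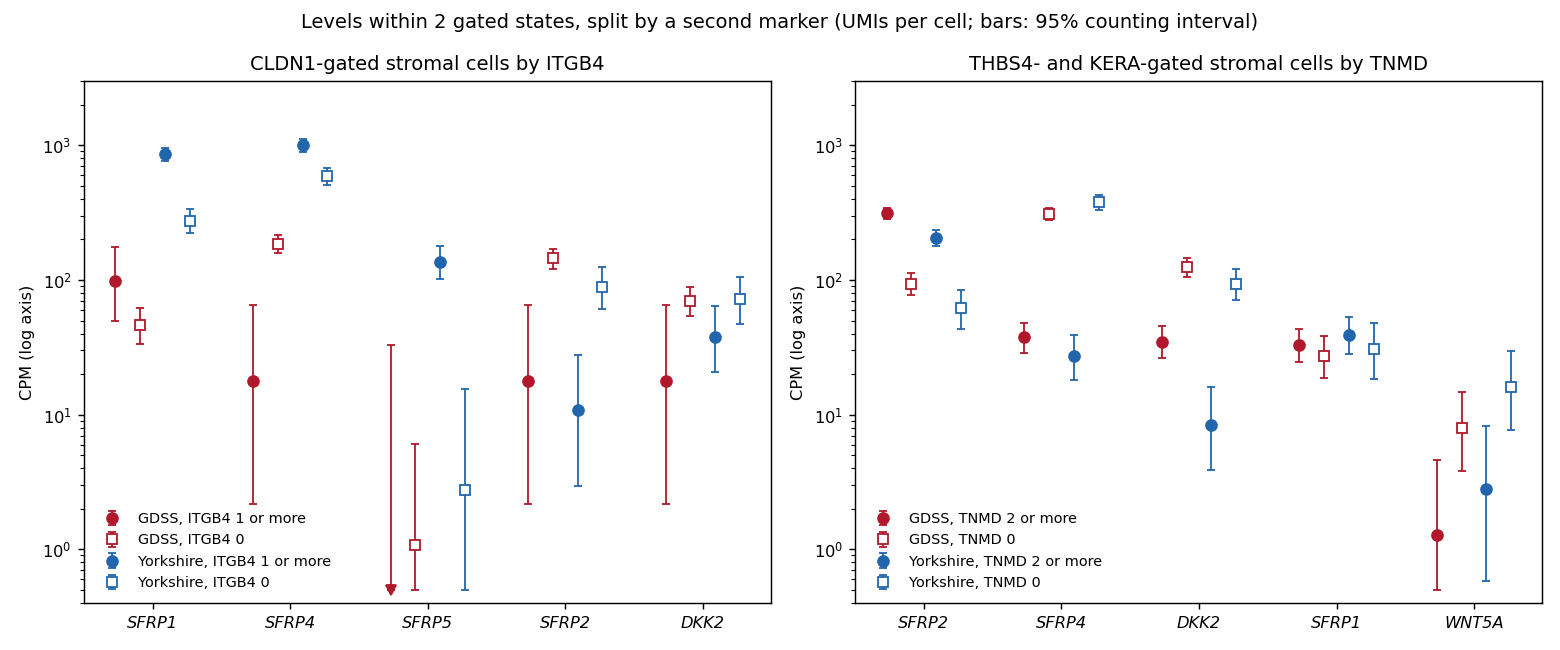
Levels in CPM on a log axis within the CLDN1-gated cells split by ITGB4 (left) and the THBS4- and KERA-gated cells split by TNMD (right), GDSS in red left of Yorkshire in blue, with filled points for cells that carry the second marker, open squares for those that do not, triangles for a count of 0 and bars for 95% Poisson intervals. SFRP2 is higher with TNMD (313 and 206 CPM) and SFRP4 without it (309 and 378 CPM), in both libraries. A large part of the SFRP4 sums comes from few cells, a spread the bars leave out.

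SFRP4 was made in large amounts by few cells. Only 97 GDSS cells had 3 or more UMIs of it, yet they held 74.7% of the library's 1328 SFRP4 UMIs, and 120 Yorkshire cells held 84.9% of 1593. A single cell reached 99 UMIs in GDSS and 100 UMIs in Yorkshire. By contrast, cells with 3 or more UMIs held 3.46% of the GDSS and 9.93% of the Yorkshire UMIs of WNT5A, and 34.0% and 34.2% of those of SFRP2. The counting intervals leave out this spread between cells.

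SFRP4 stood in stromal cells with PI16 and CLDN1 at 729 CPM (611 to 862) in GDSS and 763 CPM (667 to 868) in Yorkshire. In GDSS these were 136 UMIs in 7 of 39 cells, 91.9% of them in 3 cells, and in Yorkshire 229 UMIs in 18 of 49 cells, 49.3% of them in 3 cells. CLDN1-gated cells without PI16 had 43.4 CPM (30.6 to 59.8) in GDSS and 817 CPM (734 to 907) in Yorkshire. PI16-gated cells had 96.3 CPM (84.1 to 109.7) in GDSS, with 52% of these UMIs in 3 cells, and 160.1 CPM (128 to 198) in Yorkshire. The HHIP state was low in both, with 5 UMIs (12.7 CPM) in GDSS and 2 UMIs (18.8 CPM) in Yorkshire, next to 13.3 and 35.3 CPM in ungated stromal cells.

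The THBS4 and KERA state was another source of SFRP4, and in GDSS it held the largest share of any stromal state. It held 162 CPM (148 to 177) in GDSS and 154 CPM (137 to 174) in Yorkshire, with overlapping intervals, and 35.6% of all SFRP4 UMIs in GDSS against 17.4% in Yorkshire. The SFRP4 sums of this state differed by TNMD, though 3 cells held 43.1% of its GDSS and 62.5% of its Yorkshire UMIs. The intervals below leave out this spread between cells. The 269 GDSS and 122 Yorkshire cells without a TNMD UMI had 309 CPM (279 to 342) and 378 CPM (331 to 430.1) of SFRP4. The 222 GDSS and 156 Yorkshire cells with at least 2 TNMD UMIs had 37.4 CPM (28.5 to 48.3) and 27.2 CPM (18.2 to 39.0). TNMD cells outside the stromal class had 0 SFRP4 UMIs in GDSS and 2 in Yorkshire, and glia-like cells had 0 in both.

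Mural cells, the contractile cells of vessel walls, carried SFRP4 too. Mural-like cells had 82.9 CPM (62.9 to 107) in GDSS and 42.1 CPM (33.5 to 52.4) in Yorkshire. Those with a UMI of MYH11, the myosin of smooth muscle, had 129.5 CPM (94.1 to 174) in GDSS and 44.1 CPM (33.4 to 57.1) in Yorkshire. Those with the pericyte gene RGS5 and no MYH11 had 31.6 CPM in GDSS cells and 26.8 CPM in Yorkshire cells.

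SFRP2 was spread through the stroma. It stood at 123 CPM (119 to 127) in GDSS and 112 CPM (105 to 119.7) in Yorkshire stromal cells, with a UMI in 27.0% and 28.3% of them, and ungated cells were near that mean at 116 and 119.9 CPM. The THBS4 and KERA state was higher, at 213 CPM (196 to 229.9) in GDSS and 145 CPM (128 to 164) in Yorkshire. TNMD cells outside the stromal class were higher again, at 283 CPM (241 to 329) in GDSS and 186 CPM (150.0 to 229) in Yorkshire.

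Within the THBS4 and KERA state SFRP2 went with TNMD. Cells with at least 2 TNMD UMIs had 313 CPM (286 to 341) in GDSS and 206 CPM (179.8 to 235) in Yorkshire, and cells without TNMD 93.7 CPM (77.5 to 112) and 61.5 CPM (43.5 to 84.3). The sums of SFRP2 and SFRP4 thus split in opposite directions by TNMD in both libraries, though each gene was present on both sides. A large part of the SFRP4 sums came from few cells. The lowest stromal level of SFRP2 was in cells with PI16 and CLDN1, at 32.1 CPM (6 UMIs) in GDSS and 16.7 CPM (5 UMIs) in Yorkshire. Among mural-like cells SFRP2 was higher where RGS5 was present without MYH11 (53.7 CPM in GDSS cells and 95.5 CPM in Yorkshire cells) than where MYH11 was present (8.83 and 20.1 CPM). SFRP4 ran the other way in GDSS, while its Yorkshire intervals overlapped.

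DKK2 was highest in the PI16 state, although most of its UMIs lay in ungated stromal cells, 61.3% in GDSS and 52.1% in Yorkshire, against 18.3% and 12.9% in PI16-gated cells. PI16-gated cells had 254 CPM (234 to 275) in GDSS and 415 CPM (361 to 474) in Yorkshire, with a UMI in 50.8% and 52.9% of the cells. Thinned to 1500 UMIs, 25.8% of GDSS and 33.3% of Yorkshire PI16-gated cells had a DKK2 UMI, against 12% and 15.5% of all stromal cells. Ungated cells had 102 CPM (98 to 107) in GDSS and 178 CPM (166 to 190.3) in Yorkshire, and HHIP-gated cells, at 106 and 131 CPM, did not differ from them beyond counting error.

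The other gates held less DKK2. The THBS4 and KERA state had 74.3 CPM (64.7 to 84.8) in GDSS and 39.5 CPM (30.9 to 49.9) in Yorkshire, and within it the gene was again lower with TNMD (34.9 and 8.43 CPM) than without (124 and 93.8 CPM). CLDN1-gated cells had 62.2 CPM in GDSS cells and 37.3 CPM in Yorkshire cells. Endothelial-like cells had 12 DKK2 UMIs (20.3 CPM, 10.5 to 35.4) in GDSS and 53 UMIs (9.18 CPM, 6.88 to 12) in Yorkshire, above the 1.21 and 1.71 CPM of macrophage-like cells. The Yorkshire macrophage value was a single UMI whose interval, 0.0432 to 9.50 CPM, overlapped that of the endothelial-like cells.

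WNT5A, the only ligand among the 6 genes, was spread thinly over stroma and nearly absent elsewhere. Stromal cells held 90.5% of its UMIs in GDSS and 77.7% in Yorkshire. HHIP-gated cells had 48.1 CPM (29.0 to 75.1, 19 UMIs) in GDSS and 75.1 CPM (32.4 to 148, 8 UMIs) in Yorkshire. PI16-gated cells had 29.5 CPM (23.0 to 37.4) in GDSS and 52.1 CPM (34.3 to 75.8) in Yorkshire, and ungated cells 23.8 CPM (21.6 to 26.0) and 47.8 CPM (41.9 to 54.3). The HHIP interval overlapped that of PI16-gated cells in both libraries, and in Yorkshire that of ungated cells as well.

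WNT5A was lowest in the THBS4 and KERA state, at 4.79 CPM (2.62 to 8.04) in GDSS and 7.24 CPM (3.86 to 12.4) in Yorkshire, and the TNMD cells outside the stromal class had 2 UMIs in GDSS and 1 UMI in Yorkshire. Endothelial-like cells had 0 UMIs in both libraries, which allows up to 5.07 CPM in GDSS cells and 0.520 CPM in Yorkshire cells.

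**Figure D3:**
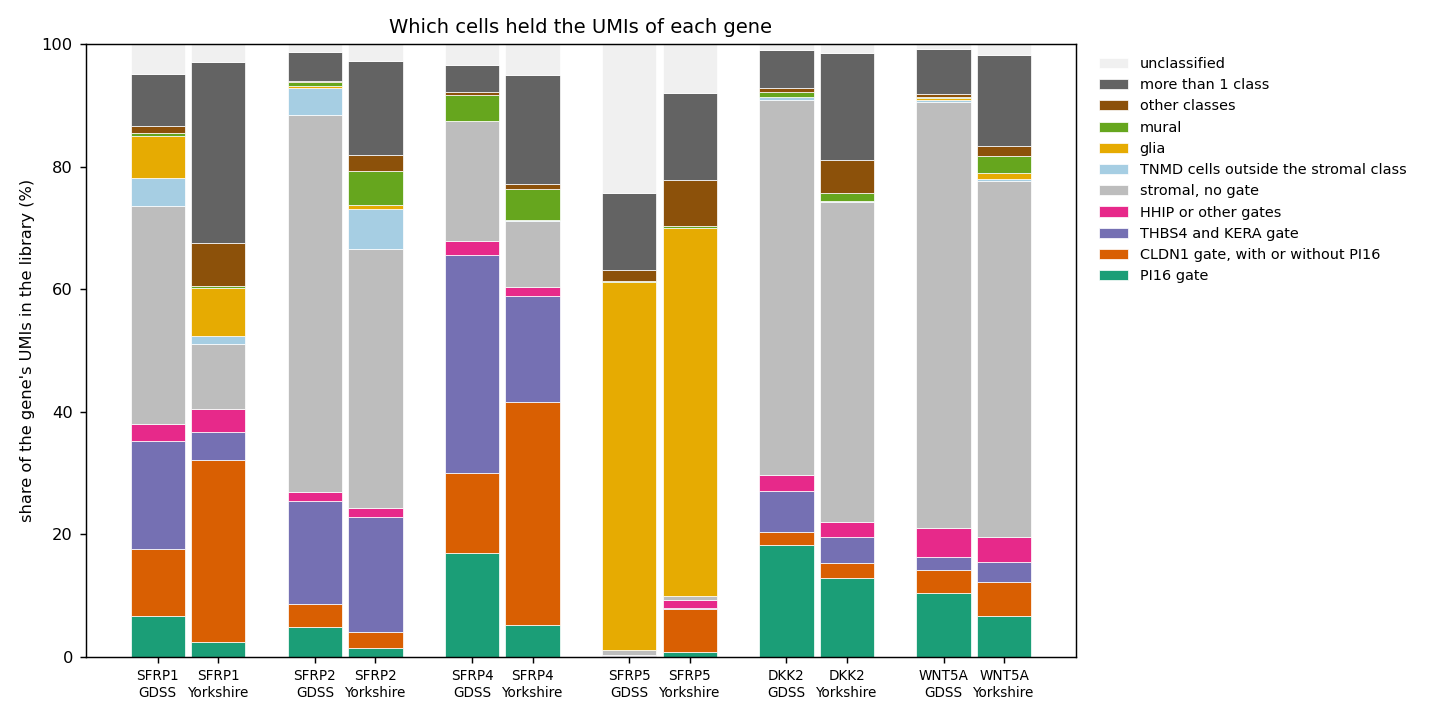
Share of each gene's UMIs (%) by the cells that held them, as stacked bars with GDSS left of Yorkshire for each gene. Glia hold 60.1% of SFRP5 in each library, ungated stromal cells most of DKK2 and WNT5A, and cells past more than 1 class gate 29.5% of Yorkshire SFRP1.

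Each state was also set against all other stromal cells of its own library, with a gene called at a ratio of at least 2 where the sums held at least 20 UMIs. In GDSS cells with PI16 and CLDN1, 2 members were called higher, SFRP1 at 16.9-fold (11.8 to 23.7) and SFRP4 at 18.7-fold (15.5 to 22.4), where 17.5% of 11847 measured genes were. In the same state of the Yorkshire library 3 members were called, SFRP1 at 14.6-fold (12.5 to 17.1), SFRP4 at 6.68-fold (5.76 to 7.74) and SFRP5 at 20.5-fold (12.4 to 33.6), where 21.1% of 10431 genes were. Without the 3 cells that held the most SFRP4 in each sum, the GDSS ratio of that gene fell to 1.91. The GDSS ratio of SFRP1 ran from 7.20 to 25.5 over 11 other settings. In CLDN1-gated cells 0 members were called in GDSS, with a background of 6.85%, and 0 lower, with one of 9.89%. In Yorkshire 3 were, SFRP1 at 5.24-fold (4.37 to 6.26), SFRP4 at 8.13-fold (7.15 to 9.23) and SFRP5 at 7.14-fold (4.03 to 12.2), with a background of 14.5%. DKK2 was the 1 member called at least 2-fold lower there, at 0.238-fold (0.136 to 0.388), with a background of 9.73%. In cells with PI16 and CLDN1, SFRP2 was lower in both libraries, at 0.260-fold in GDSS and 0.144-fold in Yorkshire. It was 1 of 2 members so called in GDSS, beside WNT5A with its single UMI, where 25.1% of genes were, and the 1 in Yorkshire, where 12.4% were.

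In PI16-gated cells DKK2 was called in both libraries, at 2.6-fold (2.37 to 2.84) in GDSS and 3.12-fold (2.68 to 3.61) in Yorkshire. SFRP4 was called at 2.48-fold in GDSS, which made 2 members where 2.97% of genes were called, and reached 1.17-fold in Yorkshire, where DKK2 was the 1 member and the background was 7.18%. The GDSS SFRP4 ratio was 0.438 when PI16 and DPP4 defined the state and 0.709 when 1 PI16 UMI was enough. Its call was also lost without the 3 highest cells of each sum. SFRP2 was lower in Yorkshire PI16-gated cells at 0.329-fold (0.200 to 0.511), the 1 member called against a background of 9.56%, and 0 members were in GDSS against 8.2%. In HHIP-gated cells WNT5A stood at 2.15-fold (1.29 to 3.39) in GDSS, the 1 member called against a background of 10.1%. It stood at 2.0-fold (0.856 to 3.99) in Yorkshire, just under the threshold before rounding, so that 0 members were called against 13.7%. Lower in this state were 1 member in GDSS, SFRP4, against 16.7%, and 3 in Yorkshire, SFRP2, SFRP4 and SFRP5, against 28.8%, each from 6 UMIs or fewer in the state. With gates of 2 genes SFRP4 was instead 3.30-fold higher in GDSS and 2.36-fold higher in Yorkshire, and the SFRP2 call was lost under 7 of 12 other settings.

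The THBS4 and KERA state gave opposite ratios for SFRP1, although its level differed little. SFRP1 was 2.54-fold (1.97 to 3.24) the level of other stromal cells in GDSS and 0.364-fold (0.278 to 0.469) in Yorkshire. The level in the state was 29.8 CPM in GDSS cells and 36.8 CPM in Yorkshire cells, whereas the other stromal cells held 11.7 and 101 CPM. Against ungated stromal cells only, the ratio was 3.31 (2.53 to 4.30) in GDSS and 1.20 (0.884 to 1.61) in Yorkshire. With SFRP4 at 5.55-fold (4.92 to 6.25), 2 members were called higher in GDSS, with a background of 5.75%, and 0 in Yorkshire, where SFRP4 stood at 1.16-fold and the background was 4.04%. Against ungated cells SFRP4 stood at 12.2-fold in GDSS and 4.37-fold in Yorkshire.

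At least 2-fold lower in the THBS4 and KERA state was WNT5A in both libraries, at 0.192-fold (0.104 to 0.325) in GDSS and 0.155-fold (0.0818 to 0.270) in Yorkshire, the 1 member so called in GDSS with a background of 13.9%. In Yorkshire SFRP1, SFRP5 and DKK2 were lower as well, which made 4 members against a background of 20.1%.

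GDSS stromal cells held less SFRP1, SFRP4 and WNT5A than Yorkshire stromal cells. SFRP1 stood at 13.7 CPM (12.3 to 15.2) in GDSS and 87.0 CPM (80.7 to 93.6) in Yorkshire, a GDSS over Yorkshire ratio of 0.158, or 6.34-fold (5.58 to 7.22) higher in Yorkshire. SFRP4 stood at 43.8 CPM (41.3 to 46.4) in GDSS and 138 CPM (129.9 to 146) in Yorkshire, 3.14-fold (2.89 to 3.41) higher in Yorkshire. WNT5A stood at 22.7 CPM (21 to 24.6) in GDSS and 38.0 CPM (33.9 to 42.5) in Yorkshire, 1.67-fold higher in Yorkshire (1.45 to 1.92). These were the 3 members called lower in GDSS at 1.5-fold, where 16% of 9897 genes with at least 100 UMIs were called, and 0 members were called higher, where 6.81% were.

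DKK2 and SFRP2 stayed within 1.5-fold over all stromal cells. DKK2 had a ratio of 0.740 (0.693 to 0.792), and SFRP2 one of 1.10 (1.02 to 1.18). The median log2 ratio of all genes measured was −0.13. With TMM scaling, which shifts every stromal log2 ratio by 0.20, the excess of WNT5A in Yorkshire was 1.46-fold and not called. Median depth was 3027 UMIs in GDSS and 3661 in Yorkshire, and 7 immediate early and heat shock genes summed to 26542 CPM in GDSS cells and 14967 CPM in Yorkshire stromal cells. Their part in these ratios was not tested.

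The ratio of SFRP1 was not the same in each state. CLDN1-gated cells had it 21.2-fold (12.5 to 38.8) higher in Yorkshire. Over 13 other settings this ran from 6.23-fold to 45.0-fold, and thinned cells gave no call only because their sums fell under 100 UMIs. Cells with PI16 and CLDN1 had SFRP1 4.06-fold (2.89 to 5.85) higher in Yorkshire, and ungated cells 3.40-fold (2.72 to 4.26) higher. Without the 3 highest cells of each sum, the excess in cells with PI16 and CLDN1 was 7.42-fold. In the THBS4 and KERA state the GDSS over Yorkshire ratio was 0.810 (0.581 to 1.13). Glia-like cells had SFRP1 2.51-fold (1.70 to 3.81) higher in Yorkshire, while their SFRP5 had a ratio of 1.02 (0.887 to 1.18). CLDN1-gated cells without PI16 made up 2.95% of GDSS and 4.74% of Yorkshire stromal cells, and those with PI16 0.517% and 2.50%. The make-up of CLDN1-gated cells differed too. In GDSS the sum of their nerve sheath markers was lower and fewer of them carried ITGB4, as given above. That sum takes in the keratin genes KRT8 and KRT18. KRT8 had no UMI in any GDSS cell, and whether the counting differed was not tested. The part of this make-up in the ratios was not tested either.

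SFRP4 was 18.8-fold (13.4 to 27.2) higher in Yorkshire in CLDN1-gated cells, and 2.66-fold (2.18 to 3.24) higher in ungated cells. Over 13 other settings the excess in CLDN1-gated cells ran from 4.63-fold to 45.8-fold. With cells thinned to 1500 UMIs it was not called, only because the sums fell under 100 UMIs. The THBS4 and KERA state, with a ratio of 1.05 (0.903 to 1.22), and the cells with PI16 and CLDN1, with one of 0.955 (0.767 to 1.19), had intervals that held 1. Both rest on few cells. Without the 3 highest cells of each sum the ratio was 1.59 in the THBS4 and KERA state, where those cells held 43.1% of the GDSS and 62.5% of the Yorkshire UMIs, and 0.153 in cells with PI16 and CLDN1. PI16-gated cells had a ratio of 0.601 (0.465 to 0.783), which was not called under 5 of 13 other settings and was 3.23 with gates of 2 genes. Mural-like cells ran the other way, at 1.97-fold (1.38 to 2.79) higher in GDSS.

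DKK2 pointed in different directions by state. It was 1.63-fold (1.39 to 1.91) higher in Yorkshire in PI16-gated cells and 1.74-fold (1.60 to 1.88) higher in Yorkshire in ungated cells, while in the THBS4 and KERA state GDSS stood 1.88-fold (1.43 to 2.49) above Yorkshire. The PI16 value was not called under 5 of 13 other settings, TMM scaling among them, and the THBS4 and KERA value under 3, at 1.42-fold or more. SFRP2 was 1.99-fold (1.25 to 3.33) higher in GDSS in PI16-gated cells and 2.11-fold (1.42 to 3.23) in CLDN1-gated cells. These calls were lost under 2 and 3 of 13 other settings, in PI16-gated cells only because the sums fell under 100 UMIs. In ungated cells SFRP2 was near equal at 0.971 (0.886 to 1.06). WNT5A was 2.01-fold (1.71 to 2.36) higher in Yorkshire in ungated cells. Those cells differed in make-up too. Of them 73 GDSS and 278 Yorkshire cells had at least 2 UMIs of FMO1, and 336 GDSS but 5 Yorkshire cells had at least 2 of IRF8, a split chosen after values were seen. In the cells with neither, DKK2 stood at 105 CPM (100.4 to 110.0) in GDSS and 176 CPM (163 to 189.9) in Yorkshire, and WNT5A at 24.2 CPM (21.9 to 26.6) and 47.2 CPM (40.5 to 54.7).

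**Figure D4:**
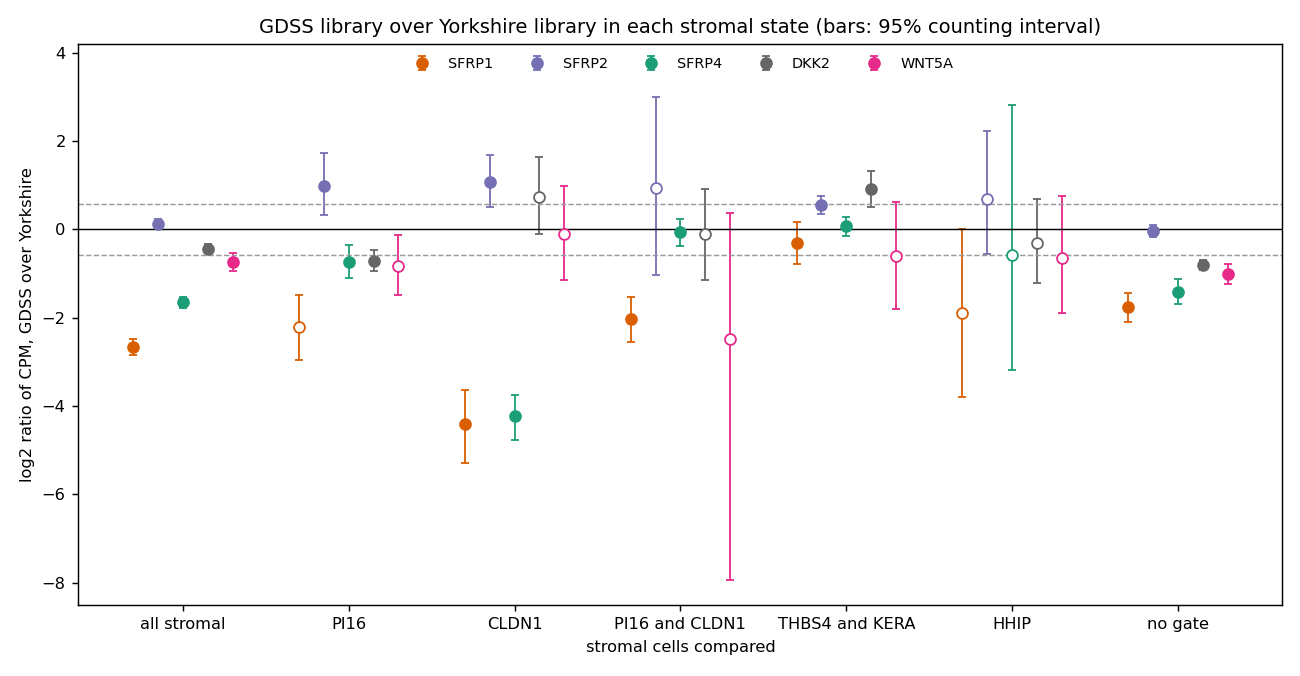
Log2 ratio of CPM, GDSS over Yorkshire, for 5 of the genes in all stromal cells, in each state and in ungated cells, with 95% counting intervals. Filled points rest on at least 100 UMIs, open points on fewer, dashed lines mark 1.5-fold either way, and the ratio of SFRP1 lies near 0 in the THBS4 and KERA state but below −4 in CLDN1-gated cells.

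Detection in the same cell was read at equal depth, as a description. In stromal cells thinned to 1500 UMIs, 134 of 1090 GDSS cells with SFRP2 also had DKK2 (12.3%), against 12% of GDSS cells without SFRP2, and in Yorkshire the shares were 13.4% and 15.9%. SFRP1 and SFRP4 overlapped in part. Of GDSS cells with SFRP1, 7.14% had SFRP4, against 2.06% of those without, and of Yorkshire cells with SFRP1, 19.0% had SFRP4, against 4.53%. Of 13 Yorkshire stromal cells with SFRP5, 9 had SFRP1.

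SFRP1 was detected in 0.820% of GDSS cells with DKK2 and 1.90% of those without, and in 3.42% and 9.60% of such Yorkshire cells. In Yorkshire 26.7% of WNT5A-bearing cells had DKK2, against 14.7% of the others. In GDSS the shares were 12.9% and 12%.

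The rest of the pathway was read from a list of 74 other genes of Wnt signalling, of which 71 were in the table. Within each role up to 3 genes with the most stromal UMIs are named, and no level is compared between genes. Of the ligands these were WNT11 (21.8 CPM in GDSS cells and 22.8 CPM in Yorkshire cells), WNT5B and WNT9A. WLS, the carrier that brings Wnt ligands to the cell surface, stood at 27.2 CPM in GDSS cells and 52.4 CPM in Yorkshire cells, and PORCN, which attaches their lipid, at 6.50 and 9.35 CPM. LRP6, a co-receptor that DKK2 binds, was at 34.1 CPM in GDSS cells and 68.8 CPM in Yorkshire stromal cells. FZD2, at 40.0 and 36.4 CPM, and PTK7 were the other receptors. They were DACT1, TPBG and DKK3 of the other inhibitors, LGR4, RSPO3 and LGR5 of the enhancers, and MYC, TCF7 and CTNNB1 of the transducers and targets.

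Between the libraries, 6 of 38 measured genes of this list were called at least 1.5-fold higher in GDSS stromal cells and 8 lower, beside 6.81% and 16% of all genes. The 6 were WNT9A, FRZB, APCDD1, TCF7, CCND1 and MYC. TCF7, a transcription factor that works with beta-catenin, stood at 408 CPM in GDSS cells and 202 CPM in Yorkshire cells, and MYC at 595 and 350.5 CPM. The immediate early and heat shock genes were higher in GDSS too, and their part here was not tested. The 8 lower ones were WLS, FZD5, LRP6, ROR2, DKK3, KREMEN1, ZNRF3 and RSPO3. RSPO3, a secreted enhancer of Wnt signalling, stood at 13.6 CPM in GDSS cells and 30.0 CPM in Yorkshire cells.

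The states differed in these genes as well. In the THBS4 and KERA state 7 of 43 measured genes were called higher in GDSS and 7 of 42 in Yorkshire, and the same 7 genes made up both counts, while 6 and 13 were called lower. Of all genes 5.75% and 4.04% were called higher and 13.9% and 20.1% lower. They were DKK3, RSPO2, LGR5, LRP5, NKD1, SOSTDC1 and WNT11. The enhancer RSPO2 was at 15.1 CPM in the state and 0.212 CPM in other stromal cells in GDSS. The Yorkshire values were 18.9 and 0.155 CPM, so that other stromal cells had nearly none of it. RSPO2 was not confined to the state, since GDSS TNMD cells outside the stromal class held 24.1 CPM and Yorkshire ones 36.9 CPM. Of the 7 genes, LRP5 alone was lower in those TNMD cells than in the THBS4 and KERA state in both libraries. DKK3, a relative of DKK2, stood at 59.9 CPM in this state in GDSS cells and 62.9 CPM in Yorkshire cells, and LGR5, a receptor for RSPO proteins, at 18.5 and 11.1 CPM.

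Cells with PI16 and CLDN1 had 11 of 43 list genes called higher in GDSS and 15 of 42 in Yorkshire, 8 of them in both, and 9 and 8 called lower. Of all genes 17.5% and 21.1% were higher and 25.1% and 12.4% lower there. The 8 shared genes were FZD2, ROR2, DKK3, DACT1, TPBG, WLS, WNT2 and WNT2B, the last with a GDSS interval that held 1 (0.350 to 10.9). FZD2, a Frizzled receptor, stood at 155 CPM in these cells in GDSS and 196 CPM in Yorkshire, against 39.1 and 30.4 CPM in other stromal cells, and ROR2 at 42.9 and 63.3 CPM against 5.25 and 7.82 CPM. FZD2 was the gene called in CLDN1-gated cells of both libraries. There 1 of 43 list genes was called higher in GDSS and 13 of 42 in Yorkshire, and 9 and 8 lower. Of all genes 6.85% and 14.5% were higher and 9.89% and 9.73% lower in that state. In PI16-gated cells 4 of 43 list genes were called higher in GDSS and 9 of 42 in Yorkshire, beside 4 and 5 lower. Of all genes 2.97% and 7.18% were higher and 8.2% and 9.56% lower. The 3 called in both libraries were WNT10B, WNT2B and WNT9A, each under 16 CPM, and their Yorkshire intervals all held 1. In HHIP-gated cells 3 of 43 and 7 of 42 list genes were called higher, beside 10 and 21 lower, from 28 Yorkshire cells. Of all genes 10.1% and 13.7% were higher and 16.7% and 28.8% lower. WNT2B and WNT5B were called in both libraries, WNT2B with a GDSS interval that held 1.

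For each member the 3 genes of most similar level over 13 classes and states were sought by Pearson correlation of log2(CPM + 1), taking the lower of the correlations in the GDSS and Yorkshire libraries, among 8204 genes. The 13 groups of a library share its depth and free RNA, so these are descriptions. DKK2 ran with LTBP1 (0.91), PROCR and TNXB, WNT5A with GSN (0.91), CD276 and PENK, and SFRP2 with COL1A1 (0.92), SLITRK6 and KDELR1. COL1A1 is 1 of the 8 markers that called the stromal class, so its correlation is partly set by that gate. SFRP1 ran with LPAR1 (0.89), PTPN13 and ITGA11, SFRP4 with EBF2 (0.84), REPS2 and PLXDC1, and SFRP5 with ASRGL1 (0.87), HMGCS1 and ATP8A1.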

How the data were processed

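The deposited matrices hold raw UMI counts of genes in barcodes. The submitters' processing notes name Cell Ranger (the file headers give software version 3.1.0) and R 3.5.2; the genome build is not given in the sources used here. Every deposited barcode had at least 500 UMIs, and totals were 42093851 UMIs in 12286 GDSS barcodes and 54300953 in 14695 Yorkshire barcodes.

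Cells were kept with at least 500 genes, at most 10% mitochondrial UMIs and a scrublet doublet score under 0.3. A class needed a set number of its markers detected (5 of 8 for stromal cells, 2 of 5 in the table for glia, 4 of 10 for macrophages); cells past more than 1 class gate, except satellite with myofibre and endothelial with lymphatic markers, were set aside. A state needed at least 2 UMIs of PI16, of CLDN1 or of HHIP, or 1 UMI each of THBS4 and KERA; a cell in several gates counted in none, except PI16 with CLDN1. TNMD cells outside all classes had at least 2 TNMD UMIs. Counts were summed per group and scaled to CPM. Levels carry exact Poisson intervals, ratios conditional binomial and shares Clopper-Pearson intervals, all at 95%. A count of 0 allows up to 3 counts per summed group. With 1 library per breed no test, p-value or standard error can be given. The free RNA share, from stromal markers in macrophage-like and endothelial-like cells, was 1.07% in GDSS and 1.92% in Yorkshire. Ratios and intervals were run on simulated Poisson counts. These hold no spread between cells, so that check covers counting error only.

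The members, gene lists, gates and thresholds were chosen with earlier results of these data known. Besides the members, genes named are the 3 best correlated with each, up to 3 of each role of the Wnt list by stromal CPM, those called in a state in both libraries, and genes called between the libraries, of which the last were named after their values were seen. Splits by ITGB4, TNMD and MYH11, and the 7 stress genes, were also chosen then. Some results on glia-like cells are not reported here. Tools were Python 3.11.15, scanpy 1.11.5, numpy 2.4.6, scipy 1.17.1, pandas 2.3.3, matplotlib 3.10.9, R 4.3.3 and edgeR 4.0.16 (TMM scaling only).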

Additional observations from a re-analysis of the deposited data

Results flagged for a closer look

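SFRP1 in the THBS4 and KERA state moved in opposite directions in the libraries, at 2.54-fold the level of other stromal cells in GDSS and 0.364-fold in Yorkshire; with 1 library each the difference was not tested. Against ungated cells only, the ratios were 3.31 and 1.20, and with non-exclusive gates the Yorkshire ratio was 1.27. The level in the state itself was 29.8 CPM in GDSS and 36.8 CPM in Yorkshire.

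DKK2 had GDSS over Yorkshire ratios of 0.613 in PI16-gated cells and 0.575 in ungated stromal cells but 1.88 in the THBS4 and KERA state, and this difference between states was not tested either.

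Of the Yorkshire SFRP1 UMIs, 29.5% lay in cells that met more than 1 class gate and entered no state, against 8.50% in GDSS. With those of them that met the stromal gate counted as stromal, SFRP1 was 7.53-fold higher in Yorkshire over all stromal cells.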

How the results depend on the processing

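No paired analysis was possible because each breed has 1 library, and for the same reason no replicate could be left out. There were 30 pairs of a member and a state. In GDSS those with SFRP5 could not be called, because its 6 stromal UMIs fell under the minimum. Its ratio of 6.01 in CLDN1-gated GDSS cells came from 1 UMI and is not counted. Of the pairs, 7 were called at least 2-fold higher in each library, 3 of them the same pairs. The shares of all genes called in each state are given above. With 1 UMI as the gate GDSS gave 4, with non-exclusive gates 11, and without the 3 highest cells of each sum 4; the last removes a larger part of small states. The last 2 settings, and counting mixed cells as stromal, were chosen after seeing the data. In the other settings GDSS gave 6 to 9, and Yorkshire gave 5 to 10 in all. Over all stromal cells the count of members lower in GDSS was 2 to 4, and 0 were higher in the settings run.

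Some called log2 ratios changed sign. SFRP4 in GDSS PI16-gated cells was −0.50 with 1 UMI and −1.19 with gates of 2 genes, which also turned its GDSS over Yorkshire log2 ratio there to 1.69. SFRP4 in HHIP-gated GDSS cells was 0.42 with 3 UMIs, 1.72 with 2 genes and 1.66 with non-exclusive gates, and in Yorkshire 1.24 and 0.11 with the last 2 of these. WNT5A in GDSS cells with PI16 and CLDN1 was 0.65 with 1 UMI, and SFRP1 in the Yorkshire THBS4 and KERA state 0.35 with non-exclusive gates. The cause was not tested. DKK2 in PI16-gated cells stayed at 2.41-fold to 2.61-fold in GDSS and 2.15-fold to 3.66-fold in Yorkshire. The GDSS call of WNT5A in HHIP-gated cells was lost under 3 of 12 settings. Small states limit precision, above all 28 HHIP-gated Yorkshire cells.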
